A study of Mus musculus with 21 samples.

Results

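The 35 genes described here are the NF-kB transcription factor subunits, their IkB inhibitors, the feedback enzymes that end NF-kB signalling, and signalling or response genes of the pathway, chemokines left out. They were chosen by name, with earlier results of these data known. All 35 were found among the 28987 genes of an RNA-seq table of mouse blood stem and progenitor cells. Lineage-negative bone marrow cells of pooled animals were sorted into LT-HSC, the long-term repopulating stem cells of the blood, and MPP, the multipotent progenitors made from them (here MPP3 and MPP4). Retinoid X receptors (RXR) act as partners of many other nuclear receptors, and the study compared cells with and without Rxra and Rxrb. Batch 1 holds MPP and LT-HSC of VaviCre+Rxrabfl/fl animals, called knockouts, and of Rxrabfl/fl animals without Cre, called floxed controls. Batch 2 holds LT-HSC of Vav1Cre+Rxrabfl/fl Myclfl/+ animals (Myc in the descriptions, called Myc allele libraries), of Vav1Cre+Rxrabfl/fl animals (called libraries labelled knockout), and of Vav1Cre+WT animals, called Cre controls. Each group has 3 libraries. The Vav1 promoter drives Cre in blood cells, so the deletion is aimed at all blood lineages. The control genotype changes with the batch, so batch and control genotype cannot be told apart.

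NF-kB subunits sit in the cytoplasm of resting cells, held by IkB proteins. Signals from TNF, interleukin-1 or Toll-like receptors activate the IkB kinase complex, which marks IkB for destruction and lets dimers such as Rela with Nfkb1, or Rel, enter the nucleus. Among their first target genes are their own brakes, the inhibitor Nfkbia (IkB alpha) and the ubiquitin-editing enzyme Tnfaip3 (A20), so the RNA of these genes is a widely used readout of the pathway. In blood stem cells the pathway is known for its part in survival and in the response to infection and inflammation.

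Binding sites for NF-kB in the promoter are textbook features of these feedback genes. RefSeq promoter windows (GRCm38.p6, 250 bases before to 50 after a transcription start) were given for 28 of the 35 genes, and Cd83, Relb, Cd40, Nfkb1, Nfkbiz, Ripk2 and Map3k8 were not among them. The palindromic kB consensus, searched on both strands, was in a window of 13 of the 28 genes (46.4%), and in 5.14% of 27025 genes of the table. A looser form that overlaps it, GGGNNNNNCC, was in 22 of the 28 (78.6%) and in 53.5% of all genes. The windows below belong to the genes that were lower in knockout MPP and hold the consensus, with 1 window shown for each gene. Each is written 5′ to 3′ along its gene, with consensus matches in capitals and overlapping matches joined.
Nfkbia, chr12:55492598-55492897, minus strand: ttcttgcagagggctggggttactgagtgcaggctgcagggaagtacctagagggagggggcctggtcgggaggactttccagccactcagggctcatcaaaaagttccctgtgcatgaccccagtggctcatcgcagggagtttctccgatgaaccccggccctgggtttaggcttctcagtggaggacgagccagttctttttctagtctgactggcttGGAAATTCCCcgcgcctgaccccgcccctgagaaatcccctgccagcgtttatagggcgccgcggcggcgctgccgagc
Tnfaip3, chr10:19015361-19015660, minus strand: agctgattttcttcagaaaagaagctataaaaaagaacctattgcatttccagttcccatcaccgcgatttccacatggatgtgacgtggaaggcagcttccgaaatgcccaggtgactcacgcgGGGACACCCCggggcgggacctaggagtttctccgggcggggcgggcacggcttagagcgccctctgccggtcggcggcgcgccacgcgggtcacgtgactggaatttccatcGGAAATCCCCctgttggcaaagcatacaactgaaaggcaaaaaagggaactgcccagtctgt
Nfkbie, chr17:45555450-45555749, plus strand: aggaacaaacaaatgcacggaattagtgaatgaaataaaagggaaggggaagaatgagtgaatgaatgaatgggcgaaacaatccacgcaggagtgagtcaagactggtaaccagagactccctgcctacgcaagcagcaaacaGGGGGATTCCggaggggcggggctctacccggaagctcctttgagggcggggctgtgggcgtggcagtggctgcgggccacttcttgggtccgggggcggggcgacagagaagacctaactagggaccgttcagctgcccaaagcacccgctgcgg
Nfkbid, chr7:30422156-30422455, plus strand: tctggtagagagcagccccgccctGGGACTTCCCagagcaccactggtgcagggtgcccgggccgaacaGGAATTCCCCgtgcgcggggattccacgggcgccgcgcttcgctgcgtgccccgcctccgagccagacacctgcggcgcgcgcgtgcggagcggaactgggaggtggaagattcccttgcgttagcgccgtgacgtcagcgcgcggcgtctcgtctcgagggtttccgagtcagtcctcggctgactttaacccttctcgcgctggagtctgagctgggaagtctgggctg
Rel, chr11:23770920-23771219, minus strand: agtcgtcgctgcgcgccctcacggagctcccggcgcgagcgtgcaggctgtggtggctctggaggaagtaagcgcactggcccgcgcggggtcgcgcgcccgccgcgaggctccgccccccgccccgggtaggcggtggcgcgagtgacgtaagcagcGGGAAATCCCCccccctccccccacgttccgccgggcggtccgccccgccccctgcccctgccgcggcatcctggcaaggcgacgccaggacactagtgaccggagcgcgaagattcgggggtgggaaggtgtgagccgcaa
Nfkb2, chr19:46304487-46304786, plus strand: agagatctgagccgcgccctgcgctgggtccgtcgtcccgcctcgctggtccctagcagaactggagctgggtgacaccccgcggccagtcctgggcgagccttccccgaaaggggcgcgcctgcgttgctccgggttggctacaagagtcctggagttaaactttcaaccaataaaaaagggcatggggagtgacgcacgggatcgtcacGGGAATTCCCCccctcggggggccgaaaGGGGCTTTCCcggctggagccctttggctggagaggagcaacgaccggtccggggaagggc
Nfkbia (IkB alpha) has 1 match, which starts 29 bases before the transcription start. Tnfaip3 has matches 125 and 12 bases before its start, and Nfkbid (IkB NS) has them 226 and 181 bases before. Nfkb2, the p100 precursor of the non-canonical pathway, has a pair of overlapping matches from 39 bases before its start and a further match 11 bases before. Its other windows, which begin at bases 46305445 and 46305680 of chromosome 19, also hold matches and are not shown. The single matches of Nfkbie (IkB epsilon) and the overlapping pair of Rel start 106 and 92 bases before. The window of Birc3 held no match. A match is a description of the letters in the window and not a measured binding site.

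Values are deposited TPM (a transcript level per length, scaled within each library) and differences are of log2(TPM + 1), which understates the change of low genes. The summed TPM of the 10 LT-HSC markers was 404 to 972 in the LT-HSC libraries and 175 to 244 in the MPP libraries, and that of the 6 MPP markers was 1095 to 1969 in MPP and 30.9 to 136 in LT-HSC. The Rxra junction that skips exon 8 took 0.9375 of its reads in knockout LT-HSC library 1, 1 and 0.5 in knockout MPP libraries 1 and 3, and 0 to 0.1 in floxed controls, with no value in the other knockout libraries of batch 1. In batch 2 it took 0.6471, 0 and 1 in the Myc allele libraries. It took 0, 0.0127 and 0 in the libraries labelled knockout, and 0 in each Cre control. At this junction the libraries labelled knockout and Myc allele library 2 go against their labels. Rxrb had 12.8, 10.6 and 11.1 TPM in libraries labelled knockout and 15.1, 16.0 and 14.5 TPM in Cre controls. It was thus lower without overlap, as were 16.1% of all genes. Rxra had 1.27, 7.46 and 4.00 TPM against 4.14, 4.85 and 4.58 TPM, which overlapped. In batch 1 Rxra overlapped too, at 2.88 to 3.38 TPM in knockout LT-HSC and 2.37 to 5.17 TPM in floxed control LT-HSC. It was at 1.77 to 2.197 TPM in knockout MPP and 2.02 to 2.19 TPM in floxed control MPP. Rxrb overlapped in LT-HSC of batch 1, at 9.304 to 12.6 TPM in knockouts and 7.52 to 14.9 TPM in floxed controls. In MPP Rxrb did not overlap, at 9.55 to 13.6 TPM in knockouts and 15.8 to 18.8 TPM in floxed controls. Myc allele library 2 stands apart, with no value for 11662 of 46443 splicing events, against 964 to 2384 in batch 1, 1363 to 2140 in Cre controls, 5270, 8158 and 2282 in the libraries labelled knockout, and 2263 and 6167 in the other Myc allele libraries. Floxed control LT-HSC library 2 also stands apart, with 51.84% of the TPM scale in 1 gene, against 10.6% to 30.5% in the other libraries, and with the fewest genes at 1 TPM in batch 1, 12455. In LT-HSC of batch 1 the median gene was 0.52 higher on the log2 scale in knockouts than in floxed controls, so each difference there is also given after median-of-ratios rescaling of the libraries.

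In MPP, 3 of 6 inhibitors, 1 of 3 feedback enzymes and 3 of 5 subunits were lower in knockouts. Of 34 genes tested, 9 fell and none rose in knockout MPP relative to floxed control MPP, at an adjusted p under 0.05 over all 14839 genes tested. Of all genes 0.243% were called lower and 0.0809% higher, so these 9 were 25% of the 36 genes lower in this comparison. They are the inhibitors Nfkbia, Nfkbie and Nfkbid, the enzyme Tnfaip3, the subunits Rel, Relb and Nfkb2, the survival factor Birc3 and the surface protein Cd83. Levels did not overlap between the groups for 20 of the 34 genes, all lower in knockouts, where 6.25% of all genes were lower and 12.5% higher without overlap. After rescaling 10 fell and none rose, where 0.398% and 0.128% of all genes were called. The genes were chosen with earlier results of these data known, so these shares are a description and not a test of an excess. The median over the 34 genes was -0.61 on the log2 scale, against 0.08 over all genes. Fewer cells of a type and less RNA per cell cannot be told apart in such bulk samples.

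Among the inhibitors, Nfkbia (chromosome 12, 55489409 to 55492647) stood at 25.7, 30.0 and 24.6 TPM in knockout MPP, against 79.0, 76.7 and 100 TPM in floxed control MPP. Its log2 difference was -1.63 (SE 0.20, limma adjusted p = 0.00339), and it averaged 26.8 ± 2.83 TPM in knockouts and 85.4 ± 13.1 TPM in floxed controls (SD, n = 3 each). All 3 knockout libraries lay far below the lowest control. Nfkbie, which retains Rel dimers in the cytoplasm, stood at 14.3, 17.1 and 12.9 TPM in knockout MPP and at 39.1, 36.7 and 34.5 TPM in floxed control MPP (log2 difference -1.27, SE 0.17, limma adjusted p = 0.00488). Nfkbid, a nuclear IkB protein, stood at 15.8, 18.2 and 15.7 TPM in knockouts and at 44.4, 41.8 and 45.2 TPM in floxed controls (-1.35, SE 0.20, limma adjusted p = 0.00628). For both, the groups were separated by more than the spread within either. Nfkbiz (IkB zeta), a nuclear co-regulator, had 66.6, 112 and 74.5 TPM in knockouts and 144, 178 and 152 TPM in floxed controls, a difference of -0.93 that did not pass (limma adjusted p = 0.147) and passed after rescaling (adjusted p = 0.0445). Nfkbib (IkB beta) and the nuclear IkB protein Bcl3 did not pass, with differences of 0.05 (95% interval -0.47 to 0.57) and -0.26.

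The feedback enzymes act on other steps. Tnfaip3 (chromosome 10, 19000910 to 19015410), which removes activating ubiquitin chains from signalling proteins, had 55.0, 108 and 65.1 TPM in knockout MPP and 196, 246 and 175 TPM in floxed control MPP. It fell by 1.47 on the log2 scale (SE 0.26, limma adjusted p = 0.0286), with the highest knockout below the lowest control. Tnip1, an adapter that brings A20 to its targets, had 9.99, 10.4 and 10.4 TPM in knockouts and 16.4, 15.7 and 16.6 TPM in floxed controls (-0.62, limma adjusted p = 0.181, and 0.0372 after rescaling). Zc3h12a (Regnase-1), a nuclease that degrades inflammatory mRNAs, had 9.44, 9.87 and 6.05 TPM in knockouts and 24.1, 21.8 and 16.7 TPM in floxed controls (-1.22, limma adjusted p = 0.0684). The values of Tnip1 and Zc3h12a did not overlap between the groups.

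**Figure D1:**
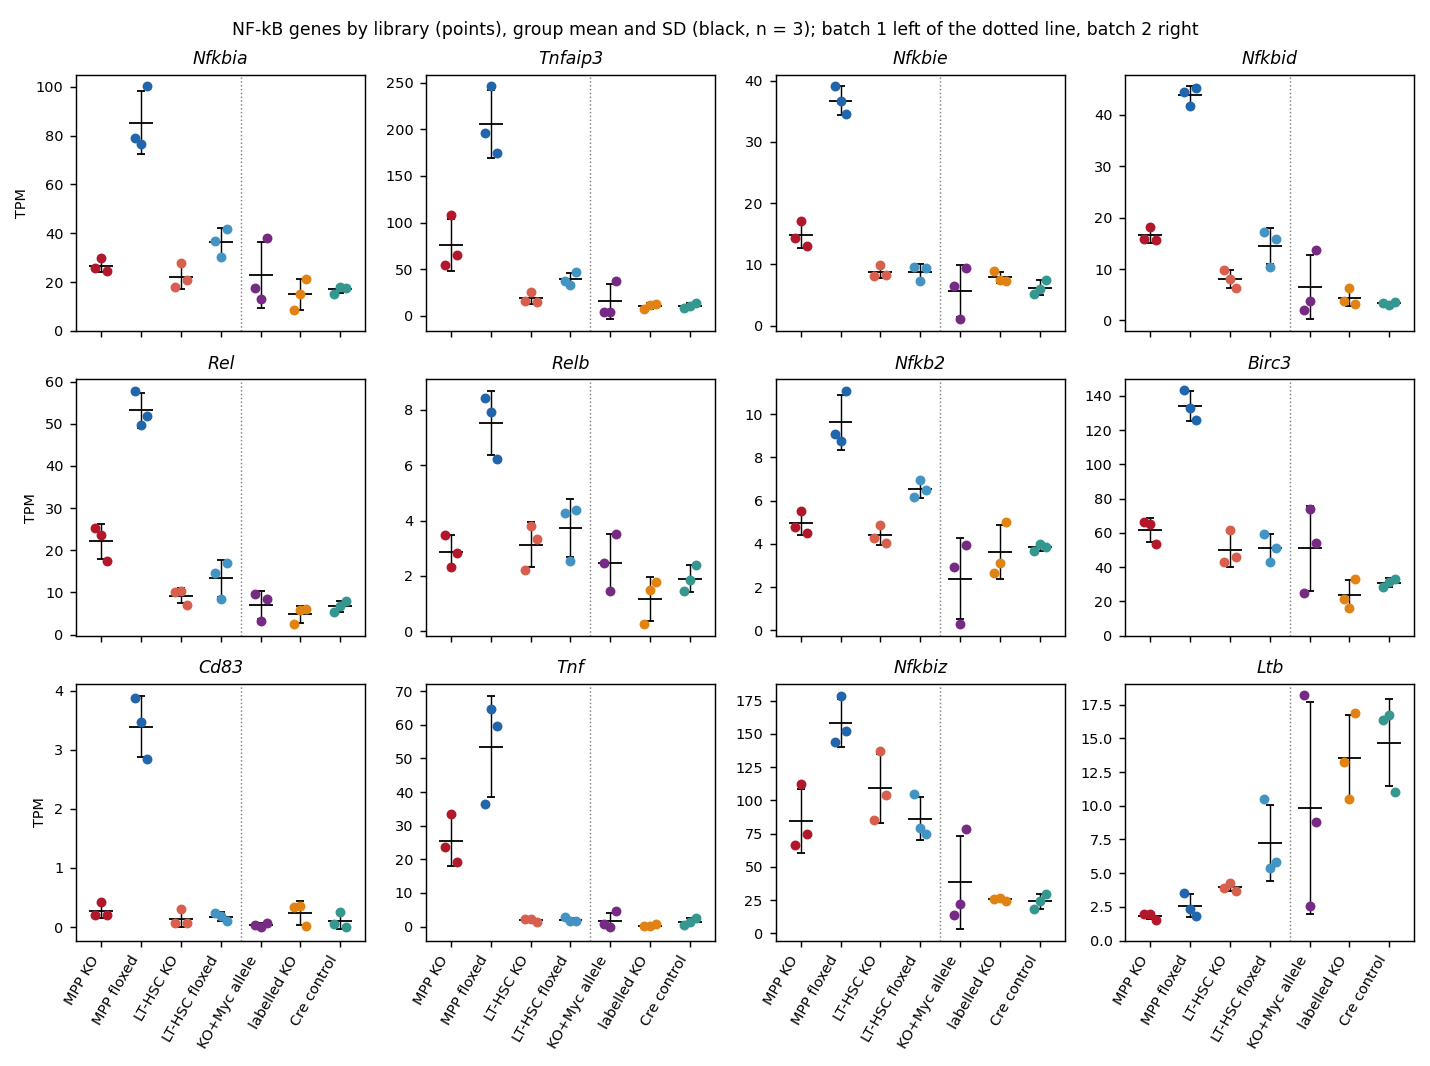
TPM of 12 genes in each of the 21 libraries (points), with the group mean and SD (black, n = 3) and a dotted line between batch 1 and batch 2. Nfkbia, Tnfaip3, Nfkbie, Nfkbid, Rel and Birc3 were highest in the 3 floxed control MPP libraries, each above every knockout MPP library.

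Of the 5 subunits, 3 fell in knockout MPP. Rel (c-Rel, chromosome 11, 23736847 to 23770969) had 25.3, 23.6 and 17.4 TPM in knockouts and 57.8, 49.8 and 51.9 TPM in floxed controls (-1.24, SE 0.24, limma adjusted p = 0.0368). Relb, the partner of p52 in the non-canonical pathway, had 3.48, 2.31 and 2.83 TPM in knockouts and 8.43, 7.90 and 6.23 TPM in floxed controls (-1.14, SE 0.22, limma adjusted p = 0.0412). Nfkb2 (chromosome 19, 46300994 to 46312400) had 4.79, 5.53 and 4.51 TPM in knockouts and 9.07, 8.74 and 11.1 TPM in floxed controls (-0.83, SE 0.17, limma adjusted p = 0.047, and 0.0513 after rescaling). In each of the 3 genes every knockout library lay below every control. Rela (p65), the main activating subunit, had 18.9, 21.0 and 18.1 TPM in knockouts and 28, 29.1 and 29.6 TPM in floxed controls and did not pass (-0.56, limma adjusted p = 0.366). Nfkb1 (p105, precursor of p50) had 40.7, 38.9 and 37.4 TPM in knockouts and 44.8, 39.7 and 41.4 TPM in floxed controls, which overlapped (-0.10, 95% interval -0.46 to 0.26).

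Among kinases, adapters and ubiquitin ligases, Birc3 (cIAP2) alone was called. It had 66.6, 65.0 and 53.6 TPM in knockout MPP and 143, 133 and 126 TPM in floxed control MPP (-1.11, SE 0.19, limma adjusted p = 0.0211). Its relative Birc2 (cIAP1), with 14.8 to 15.9 TPM in knockouts and 19.2 to 24.0 TPM in floxed controls, gave -0.44 (limma adjusted p = 0.713). The kinase Map3k8 (-0.81) and the adapter Traf1 (-0.98) did not pass although their groups did not overlap. The differences of Ikbke, Tank, Ripk2 and Traf2 lay between -0.07 and 0.13 and none passed.

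Of the ligands, receptors and surface proteins, Cd83, a marker of activated dendritic and B cells, had 0.204, 0.423 and 0.207 TPM in knockout MPP and 3.87, 3.46 and 2.85 TPM in floxed control MPP (-1.78, SE 0.18, limma adjusted p = 0.00055). Its level was under 0.43 TPM in every library outside that control group, so it entered the test through that group only, and its count among the 9 is partly set by the filter. Tnf, the cytokine that both activates and is induced by the pathway, had 23.6, 33.6 and 19.3 TPM in knockouts and 36.4, 64.7 and 59.5 TPM in floxed controls (-1.04, SE 0.26, limma adjusted p = 0.143). The lowest control lay just above the highest knockout. Il1b, the interleukin-1 beta gene, stayed low, with 0.725, 0.476 and 2.24 TPM in knockouts and 0.814, 1.37 and 0.671 TPM in floxed controls (0.07, 95% interval -0.64 to 0.77). Icam1, an adhesion molecule, gave -0.72 without overlap (limma adjusted p = 0.168). Ltb, Tnfrsf1b and Cd40 gave -0.30, 0.26 and 0.04, and none passed.

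The survival and stress response genes gave no call in MPP. Gadd45b, a stress-induced growth regulator, had 9.80, 8.44 and 9.07 TPM in knockouts and 26.5, 18.9 and 15.4 TPM in floxed controls (-1.04, limma adjusted p = 0.196), and Ier3, an early response gene, gave -0.60 (adjusted p = 0.506). Bcl2l1 (Bcl-xL), Sod2 and Tnfaip2 gave 0.10, 0.03 and 0.15. Bcl2a1b was under 2 TPM in every library and was not tested, and its reads are uncertain because it has near-identical paralogs.

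**Figure D2:**
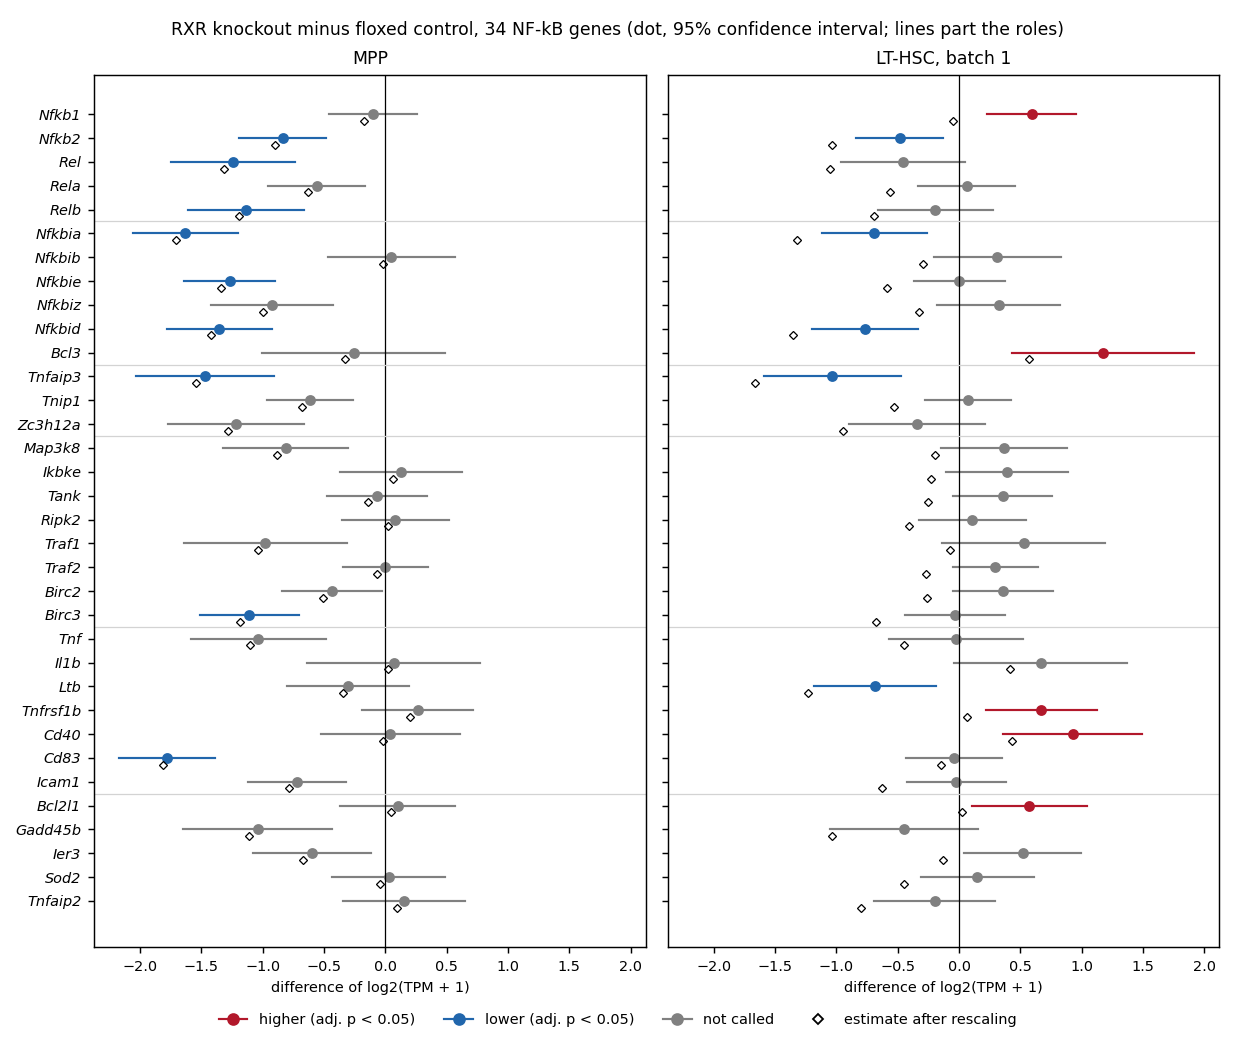
Difference of log2(TPM + 1) between knockouts and floxed controls for 34 genes in MPP (left) and in LT-HSC of batch 1 (right), with 95% intervals, coloured by call, and open diamonds for the estimate after rescaling. Blue calls in MPP run from -0.83 (Nfkb2) to -1.78 (Cd83), and the red calls in LT-HSC have diamonds nearer to 0.

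The rest of the pathway was described from lists of known genes. None of 25 upstream receptors and adapters tested, none of 5 genes of the IkB kinase complex and none of 15 other negative regulators was called in MPP by limma, in either direction. The median difference of the receptors and adapters was 0.04. The immediate early genes, which sorting and handling also induce, had a summed TPM of 3676 to 5553 in knockout MPP and of 6208 to 8306 in floxed control MPP, without overlap. Their median difference was -0.54 and none of 23 was called. Their part in the result for the NF-kB genes was not tested.

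B cell transcripts differed between the same libraries. The 17 B cell markers found summed to 6176, 1718 and 750 TPM in knockout MPP and to 12272, 11395 and 2194 TPM in floxed control MPP, most of it from the immunoglobulin genes Igkc and Ighm. None of the 12 markers tested was called by limma. Defining B cell genes were at or near 0: Ms4a1 was at 0.0428 to 0.361 TPM in knockout MPP and 0.0132 to 0.28 TPM in floxed control MPP. Pax5 was at 0.414, 0.866 and 3.31 TPM in knockout MPP and at 0.457, 0.537 and 0.0996 TPM in floxed control MPP, so its highest value was in knockout MPP library 3. Floxed control MPP library 3, with 2194 TPM of markers, had the highest Nfkbia level of all libraries, 100 TPM, while knockout MPP library 1, with 6176 TPM, had 25.7 TPM. With the log marker sum as a covariate, 4 of the 9 calls remained, Cd83, Nfkbia, Nfkbie and Nfkbid, and the Nfkbia difference was -1.65 (limma adjusted p = 0.0139). With rescaling and the covariate together 7 genes were called. Neutrophil markers, at 153 to 709 TPM in knockout MPP and 90.1 to 110 TPM in floxed control MPP, moved the other way. Monocyte, macrophage and dendritic cell markers summed to 258 to 354 TPM in knockout MPP and 187 to 216 TPM in floxed control MPP, with 1 of 10 tested called higher. Mast cell, basophil and eosinophil markers, at 58.5 to 72.7 TPM in knockout MPP and 30.3 to 71.9 TPM in floxed control MPP, overlapped. Apart from the B cell fits above, the part of these markers in the result was not tested.

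**Figure D3:**
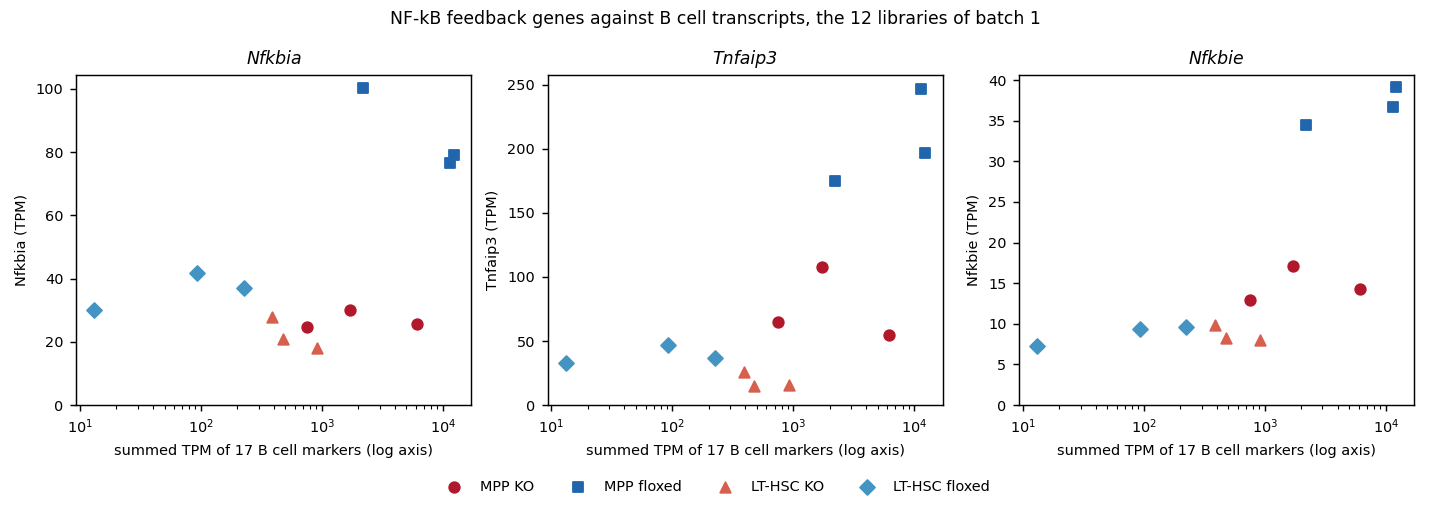
TPM of Nfkbia, Tnfaip3 and Nfkbie against the summed TPM of 17 B cell markers (log axis) in the 12 libraries of batch 1. The floxed control MPP libraries (squares) lie above the knockout MPP libraries (circles) in each panel. Marker sums of these groups overlap, at 2194 to 12272 TPM in floxed controls and 750 to 6176 TPM in knockouts.

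The number of calls in MPP rested on all 6 libraries. It was 3 without knockout library 3 or without floxed control library 1 or 2, 4 without floxed control library 3, 5 without knockout library 2 and 6 without knockout library 1. Nfkbia and Nfkbie were called in each of these fits and Rel in none. The difference of Nfkbia ran from -1.71 to -1.51 and that of Rel from -1.35 to -1.09. With the floxed control libraries 1 and 2 both left out, no gene was called, Cd83 was not tested, and the Nfkbia difference was -1.87 (limma adjusted p = 0.0541) from 1 remaining control library.

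In LT-HSC of batch 1, Tnfaip3, Nfkbid and Nfkbia were lower in knockouts while most genes called were higher. Nfkbie averaged 8.72 ± 0.973 TPM in knockout LT-HSC and 8.74 ± 1.28 TPM in floxed control LT-HSC (SD, n = 3 each) and was not called on the deposited scale. Of 34 genes tested, 5 fell and 5 rose in knockout LT-HSC, where 0.58% of all genes fell and 44.6% rose. Levels were lower without overlap for 5 genes and higher without overlap for 5, against 0.559% and 48.2% of all genes. The median over the NF-kB genes was 0.09 and that over all genes was 0.52. After rescaling, 12 NF-kB genes were lower and none higher, where 2.47% and 2.2% of all genes were called.

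The 5 genes that fell in LT-HSC were also called lower after rescaling. Without floxed control library 2, where 3574 of all genes were called in place of 6700, Tnfaip3, Nfkbid, Nfkbia and Ltb were still called lower, and Nfkb2 was not (-0.44, limma adjusted p = 0.0623). Tnfaip3 had 15.8, 25.5 and 15.1 TPM in knockout LT-HSC and 36.8, 33.2 and 46.8 TPM in floxed control LT-HSC (-1.03, SE 0.26, limma adjusted p = 0.0101). Nfkbid had 9.77, 7.97 and 6.37 TPM in knockouts and 17.1, 10.5 and 15.9 TPM in floxed controls (-0.77, SE 0.20, limma adjusted p = 0.0115). Nfkbia had 18.1, 27.9 and 20.8 TPM in knockouts and 37.0, 30.1 and 41.8 TPM in floxed controls (-0.69, SE 0.20, limma adjusted p = 0.0164). In all 3 the highest knockout was below the lowest control, closely so for Nfkbia and Nfkbid. Ltb, the lymphotoxin beta ligand of the non-canonical pathway, had 3.88, 4.26 and 3.71 TPM in knockouts and 10.5, 5.41 and 5.83 TPM in floxed controls (-0.69, SE 0.23, limma adjusted p = 0.0297). Nfkb2 had 4.26, 4.87 and 4.03 TPM in knockouts and 6.17, 6.95 and 6.47 TPM in floxed controls (-0.48, SE 0.17, limma adjusted p = 0.0306). Rescaling also brought calls for Rel, Relb, Rela, Tnip1, Birc3, Nfkbie and Tnfaip2, and moved Nfkbia to -1.32 and Tnfaip3 to -1.66.

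The genes that rose in LT-HSC did so on the deposited scale only, and without floxed control library 2 Bcl3, Cd40 and Bcl2l1 were no longer called. Nfkb1 had 34.8, 44.8 and 40.5 TPM in knockout LT-HSC and 30.8, 23.5 and 24.5 TPM in floxed control LT-HSC (0.59, limma adjusted p = 0.0157), and its difference turned to -0.046 after rescaling. Bcl3 had 16.7, 19.6 and 25.5 TPM in knockouts and 14.2, 5.50 and 7.53 TPM in floxed controls (1.17, SE 0.35, limma adjusted p = 0.0178), with 0.57 after rescaling (adjusted p = 0.216). The TNF receptor Tnfrsf1b had 12.8, 15.5 and 14.6 TPM in knockouts and 10.2, 10.4 and 5.88 TPM in floxed controls (0.67, limma adjusted p = 0.0224). Cd40, a co-stimulatory receptor, had 2.6, 6.16 and 5.64 TPM in knockouts and 1.37, 1.71 and 2.87 TPM in floxed controls, which overlapped (0.93, limma adjusted p = 0.0157). Bcl2l1 gave 0.57 (adjusted p = 0.0463), or 0.02 after rescaling, and changed sign, to -0.025, after quantile normalization.

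Other NF-kB genes did not pass in LT-HSC on the deposited scale. Rel had 10.2, 10.4 and 7.09 TPM in knockouts and 14.6, 8.55 and 17 TPM in floxed controls (-0.46, limma adjusted p = 0.116). Rela had 24.7, 26.3 and 21.5 TPM in knockouts and 26.4, 17.3 and 26.7 TPM in floxed controls, and Relb had 2.22, 3.81 and 3.34 TPM in knockouts and 4.28, 2.54 and 4.37 TPM in floxed controls. Tnip1 had 11.4, 14.5 and 12.2 TPM in knockouts and 13.9, 10.9 and 11.3 TPM in floxed controls. The groups overlapped in each of these 4 genes. Tnf, at 2.24, 2.34 and 1.34 TPM in knockouts and 2.71, 1.58 and 1.80 TPM in floxed controls, and Il1b, at 0.756, 0.559 and 2.69 TPM in knockouts and 0.185, 0.285 and 0.664 TPM in floxed controls, were low in both.

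Upstream genes were also called higher in LT-HSC, where 44.6% of all genes were. All 5 genes of the IkB kinase complex list rose on the deposited scale, among them Map3k14 (NIK, the kinase of the non-canonical pathway, 0.76), Chuk (IKK alpha, 0.84) and Tbk1 (0.70), and none was called after rescaling. Of 25 upstream receptors and adapters 10 rose and 15 did not pass, among them Tlr4 (0.91), Card9 (1.27), Tnfrsf1a (1.04) and Il1r1 (0.95), and after rescaling Card9 alone was called. Other measures of the libraries moved with genotype. Knockout LT-HSC had 13923 to 14870 genes at 1 TPM or more, against 12455 to 13249 in floxed controls. Neutrophil markers summed to 166 to 1418 TPM in knockout LT-HSC and 64.0 to 83.6 TPM in floxed controls, and B cell markers to 388 to 919 TPM in knockouts and 13.1 to 225 TPM in floxed controls. Monocyte, macrophage and dendritic cell markers summed to 264 to 310 TPM in knockouts and 108 to 195 TPM in floxed controls, with 6 of 10 tested called higher. Mast cell, basophil and eosinophil markers summed to 18.2 to 47.4 TPM in knockouts and 3.75 to 10.9 TPM in floxed controls. Apart from the B cell fits given next, the part of these markers in the result was not tested. With the B cell covariate 2 NF-kB genes were called, and with rescaling as well 4. The count was 0 without knockout library 3 and 3 without knockout library 2. Over fits with 1 library left out, the Tnfaip3 difference ran from -1.26 to -0.90.

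The knockout difference in MPP was set against that in LT-HSC as an interaction. Cd83 was the single NF-kB gene called (-1.74, SE 0.26, limma adjusted p = 0.0251), lower in the MPP contrast. It entered the test through floxed control MPP only, the group where it is high, so this call is partly set by the filter. Of all genes 0.0741% were called lower and 0.00674% higher. At an unadjusted p under 0.05 there were 19 of the 34 genes, against 3891 of all 14839 genes, or 9 and 1942 after rescaling. The interaction was negative for 32 of 34 genes on the deposited scale and for 22 after rescaling, with the median of all genes at -0.45 and 0.04. Nfkbie gave -1.27 (limma adjusted p = 0.0656) and Nfkbia -0.94 (adjusted p = 0.105), and after rescaling -0.75 and -0.38. A smaller difference in LT-HSC than in MPP was not shown for the inhibitors. The count was 9 without knockout LT-HSC library 1 and 10 without floxed control LT-HSC library 1. It was 0 without knockout LT-HSC library 2 or 3, floxed control LT-HSC library 2, knockout MPP library 3 or any floxed control MPP library. The share of all genes called in these fits is not given, so the counts of 9 and 10 are not a result about the NF-kB genes.

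Between the cell types, 4 of 6 inhibitors and 1 of 3 feedback enzymes were higher in MPP than in LT-HSC of floxed controls. In all, 14 of 34 NF-kB genes were higher in MPP and 2 were lower, where 15.5% of all genes were higher and 5.62% lower. After rescaling 12 were higher and 3 lower, against 11.2% and 12.7% of all genes. Tnf showed the largest difference of the 34 genes, with 36.4 to 64.7 TPM in MPP and 1.58 to 2.71 TPM in LT-HSC of floxed controls (4.15, SE 0.26, limma adjusted p = 4.98e-08). Nfkbie (1.96), Cd83 (1.90), Tnfaip3 (2.37), Rel (1.96), Nfkbid (1.56) and Birc3 (1.38) followed among those higher, each with an adjusted p under that of Nfkbia (1.21, limma adjusted p = 0.000603). Cd83 entered the test through floxed control MPP only, so its call and its lack of overlap here are partly set by the filter. Map3k8, Ier3, Nfkb1, Relb, Nfkbiz and Nfkb2 were also higher, and of these Nfkb1 and Nfkb2 were not called after rescaling. Tnfaip2, a TNF-induced gene, was lower, with 2.38, 2.45 and 3.02 TPM in MPP and 11.7, 9.10 and 20.5 TPM in LT-HSC (-1.96, SE 0.23, limma adjusted p = 2.84e-05). Ltb was lower as well, with 3.51, 2.38 and 1.83 TPM in MPP and 10.5, 5.41 and 5.83 TPM in LT-HSC (-1.18). Levels did not overlap for 19 genes higher in MPP and 2 lower, against 31.1% and 8.55% of all genes.

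Of the upstream list, 6 of 25 genes were higher in control MPP and none lower, and 4 and 3 were called after rescaling. The interleukin-1 receptor Il1r1 (2.82) and the adapter Card9 (2.69) led it. None of the 5 IkB kinase genes was called by limma. The B cell markers were higher in MPP as well, with 7 of 12 called and sums of 2194 to 12272 TPM in MPP and 13.1 to 225 TPM in LT-HSC. With their sum as a covariate 4 NF-kB genes were called in place of 16, and with rescaling as well 6. This comparison shares the floxed control MPP libraries with the knockout comparison in MPP, so the 2 results are not independent.

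In knockouts, 5 NF-kB genes were higher in MPP than in LT-HSC and 6 were lower, where 3.99% and 15.5% of all genes were called. Tnf was higher, with 23.6, 33.6 and 19.3 TPM in MPP and 2.24, 2.34 and 1.34 TPM in LT-HSC (3.14, SE 0.26, limma adjusted p = 5.91e-07). Tnfaip3 (1.94), Rel (1.18), Nfkbid (0.97) and Nfkbie (0.69) were higher too. Tnfaip2 (-1.61), Traf1 (-1.82), Bcl2l1 (-0.92), Ltb (-0.80), Ikbke (-0.79) and Tnfrsf1b (-0.64) were lower. Traf1, an adapter of TNF receptors, had 2.23, 3.73 and 1.90 TPM in MPP and 7.29, 13.8 and 15 TPM in LT-HSC. After rescaling 7 genes were higher, with Birc3 and Nfkbia added, and 2 lower, Traf1 and Tnfaip2, against 11.6% and 11.3% of all genes. Levels did not overlap for 6 genes higher in MPP and 10 lower, against 10.2% and 29.9% of all genes. The count of 11 was 7 without knockout LT-HSC library 3. Upstream, 3 of 25 genes were higher and 2 lower, with Card9 and Il1r1 again higher.

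**Figure D4:**
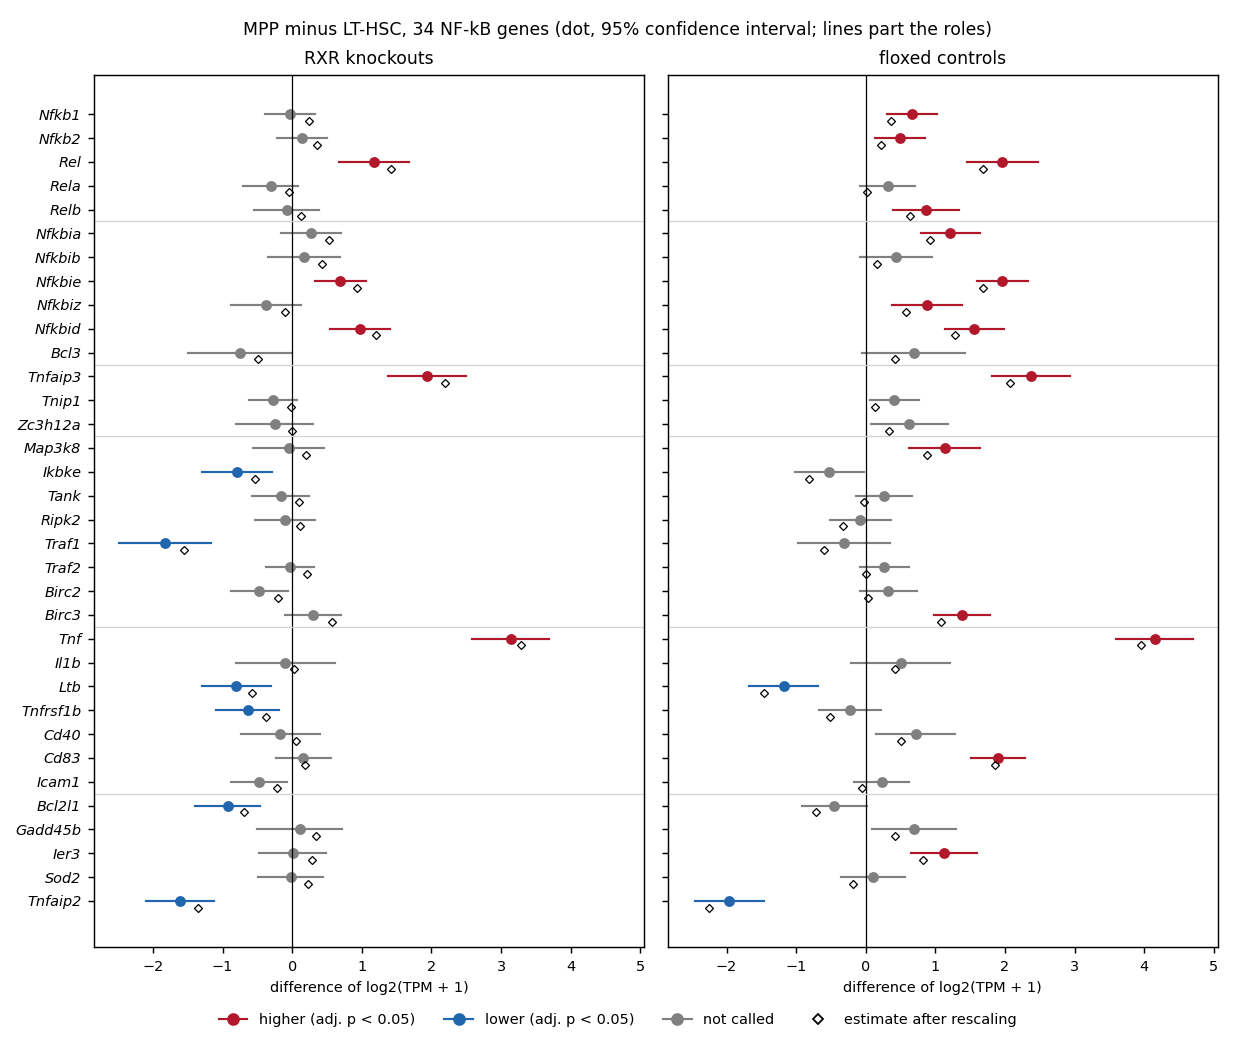
Difference of log2(TPM + 1) between MPP and LT-HSC for 34 genes in knockouts (left) and floxed controls (right), with 95% intervals, coloured by call, and open diamonds for the estimate after rescaling. Tnf and Tnfaip3 are higher in MPP in both panels, while Nfkbia is called on the deposited scale in floxed controls only (1.21).

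Batch 2 showed no call among these genes. For 32 genes tested, limma called none in the libraries labelled knockout against Cre controls (0.0744% of all genes called), in Myc allele libraries against those labelled knockout (0%), or in Myc allele libraries against Cre controls (0.104%). At an unadjusted p under 0.05 there were 1, 1 and 2 genes, against 616, 547 and 1267 of all 13445 genes tested. Nfkbia had 17.5, 13.2 and 38.2 TPM in Myc allele libraries, 8.62, 15.2 and 21.2 TPM in libraries labelled knockout, and 15.2, 18.2 and 17.6 TPM in Cre controls. Tnfaip3 had 4.15, 4.57 and 37.4 TPM in Myc allele libraries, 7.13, 11.4 and 12.6 TPM in libraries labelled knockout, and 8.03, 10.5 and 13.4 TPM in Cre controls. Myc allele library 3 was the highest of batch 2 for both genes, and otherwise the groups overlapped.

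Subunits in batch 2 overlapped between groups with the exception of Nfkb1. Nfkb1 had 38.4, 30.0 and 23.9 TPM in Myc allele libraries, 28.5, 24.0 and 37.8 TPM in libraries labelled knockout, and 39.2, 44.0 and 41.1 TPM in Cre controls, so both other groups lay below the Cre controls. Levels were lower without overlap for 3 genes (Nfkb1, Nfkbib and Tnip1) in libraries labelled knockout and for 4 (Nfkb1, Ripk2, Sod2 and Tank) in Myc allele libraries, against 16.1% and 11.9% of all genes. None was higher without overlap in either, where 3.95% and 3.91% of all genes were. Rel had 9.56, 3.29 and 8.40 TPM in Myc allele libraries, 2.49, 5.88 and 6.08 TPM in libraries labelled knockout, and 5.36, 6.68 and 7.96 TPM in Cre controls. Nfkb2, at 2.94, 0.285 and 3.95 TPM in Myc allele libraries, 2.67, 3.12 and 5.02 TPM in libraries labelled knockout, and 3.69, 4.01 and 3.84 TPM in Cre controls, was lowest in Myc allele library 2. This library was also lowest for Rela and Rel among the Myc allele libraries. Relb had 2.46, 1.45 and 3.5 TPM in Myc allele libraries, 0.263, 1.48 and 1.78 TPM in libraries labelled knockout, and 1.45, 1.85 and 2.40 TPM in Cre controls. Rela had 25.6, 9.83 and 16.3 TPM in Myc allele libraries, 19.9, 18.2 and 27.0 TPM in libraries labelled knockout, and 21.0, 24.4 and 25.2 TPM in Cre controls. Tnip1 had 17.6, 15.5 and 8.93 TPM in Myc allele libraries, 14.6, 9.01 and 16.8 TPM in libraries labelled knockout, and 17.2, 19.8 and 19.2 TPM in Cre controls. Tnf reached 4.53 TPM in Myc allele library 3 and stood at 0 to 0.708 TPM in the other Myc allele libraries and those labelled knockout, and at 0.557 to 2.43 TPM in Cre controls. Il1b was under 0.7 TPM throughout.

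The knockout difference in LT-HSC was also compared between batches. None of 32 NF-kB genes was called in that interaction by limma, where 1.27% of all genes were. At an unadjusted p under 0.05 there were 4, against 5846 of all 14492 genes, or 8 and 1423 after rescaling. Tnfaip3 gave -0.99 (adjusted p = 0.0876) and Nfkbid -1.06 (adjusted p = 0.0786). Without library 6 of those labelled knockout 7 genes were called, and without floxed control LT-HSC library 1 there was 1. The share of all genes called in these fits is not given, so the counts are not a result about the NF-kB genes. Controls differed between batches too. Floxed control LT-HSC were above Cre control LT-HSC without overlap for 11 of 32 genes, among them Nfkbia, Tnfaip3, Nfkbid, Nfkbiz and Zc3h12a, and below for 8, against 8.87% and 39% of all genes. Nfkbiz averaged 86.2 ± 16.1 TPM in floxed controls and 24.1 ± 5.67 TPM in Cre controls (SD, n = 3 each). Immediate early genes summed to 5222 to 8674 TPM in floxed control LT-HSC and 2168 to 2884 TPM in Cre controls. Batch and genotype cannot be told apart here, so no test was made.

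Splicing was measured as the share of reads on a junction against competing junctions (PSI, a fraction). The deposited table held 272 events in 24 of the 35 genes, already selected for spread, and 213 events in 21 genes had a value in all 12 libraries of batch 1. Between MPP and LT-HSC of floxed controls no event of these genes was called by limma, where 0.486% of all events were, and 37 passed an unadjusted p of 0.05. Between knockout and floxed control LT-HSC 2 events were called, where 0.166% of all events were. In Nfkbiz an intron-exon junction (mm10 chromosome 16, 55817729), from intron block I7.2 to exon block E9.3, was called. Its competing junction runs from the same intron block to exon block E10.1, so the PSI compares those junctions only. The called junction had a PSI of 0 in all 3 knockout LT-HSC libraries and of 0.423, 0.305 and 0.471 in floxed control LT-HSC (difference -0.40, SE 0.05, limma adjusted p = 0.0163). It was also 0 in all 3 knockout MPP libraries, against 0.493, 0.435 and 0.338 in floxed control MPP, a pair that was not tested. In batch 2 it was 0 and 0.396 in Myc allele libraries 1 and 3, 0.246, 0 and 0.421 in the libraries labelled knockout, and 0.300, 0.295 and 0.250 in Cre controls. In Nfkb2 the spliced junction of exons 7 and 8 (chromosome 19, 46307718 to 46307956) had a PSI of 1 in all 3 knockout LT-HSC libraries and of 0.54, 0.57 and 0.488 in floxed control LT-HSC (difference 0.47, SE 0.07, limma adjusted p = 0.0461). In MPP it was 0.222, 0.55 and 0.37 in knockouts and 0.172, 0.224 and 0.3 in floxed controls. In batch 2 it was 1 in every library labelled knockout and every Cre control. It was 0.186 in Myc allele library 3 and had no value in Myc allele libraries 1 and 2. The reads behind these fractions are not given, so a value of exactly 0 or 1 can rest on few reads. Without knockout library 3, or without any floxed control library, 1 of the 2 events was called. Over 13836 intron retention events the median PSI was 0.0926 to 0.1404 in knockout LT-HSC and 0.0177 to 0.0808 in floxed control LT-HSC, which for the Nfkb2 junction is the opposite direction. Over the 112 of these events in NF-kB genes it was 0.0529, 0.1061 and 0 in knockout LT-HSC and 0.1343, 0.1115 and 0.1469 in floxed control LT-HSC. Over the 16 in Nfkbiz it was 0.1993, 0.4115 and 0.5877 in knockouts and 0.1343, 0.2599 and 0.1579 in floxed controls, which overlapped. These medians were not tested.

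**Figure D5:**
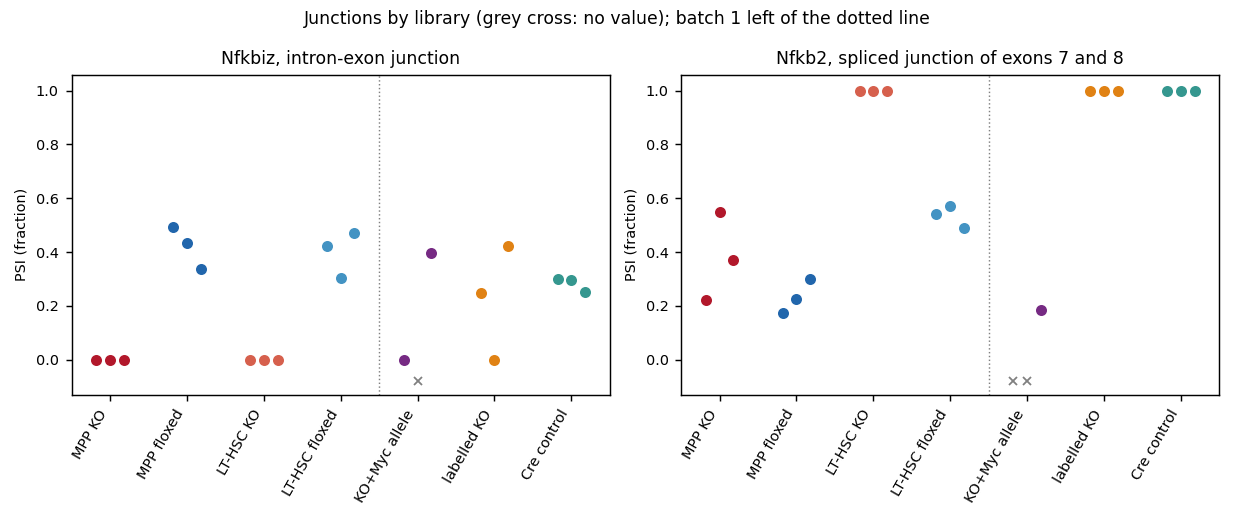
PSI (fraction) of the Nfkbiz intron-exon junction (left) and of the spliced Nfkb2 junction (right) in each library, with crosses for libraries without a value and a dotted line between the batches. The Nfkbiz junction is at 0 in the 6 knockout libraries of batch 1, and the Nfkb2 junction is at 1 in knockout LT-HSC.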

How the data were processed

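Per the submitters' processing notes, the authors used kallisto with mm10 for expression and STAR 2.6 with mm10 for splicing, with the kallisto version, transcript set and splicing caller not given in the sources used here. The authors deposited TPM per gene and PSI as a fraction per event. TPM keep no depth, so no counting interval is given. Per the labels, 5 ng of RNA from pooled animals was amplified for each library, so p-values measure the spread between such samples, which may be technical. Genes reaching 1 TPM in 3 or more libraries entered limma 3.58.1 (R 4.3.3, variance trend) on log2(TPM + 1), with Benjamini-Hochberg adjustment over all genes tested. Batch 1 and batch 2 were in separate fits, except for the interaction between batches. That used a joint fit of knockout, floxed control, labelled knockout and Cre control LT-HSC libraries. PSI calls needed an adjusted p under 0.05 with a PSI change of 0.1 or more. Rescaling divided each library by a median-of-ratios factor. The script was tested on simulated data. Figures were drawn with matplotlib 3.10.9. Genes named with values in every library are Nfkbia, Tnfaip3, Tnip1, the subunits, Tnf, Il1b and up to 8 called genes with the smallest p in each comparison. The 35 genes and all lists were chosen with earlier results of these data known. Alternatives were rescaling, quantile normalization, a pseudocount of 0.1, no filter, a replicate block, a B cell covariate and each library left out. Same-numbered MPP and LT-HSC libraries of batch 1 share source codes in the descriptions, so these are paired by label. In knockouts their deviations correlated at 0.539, 0.155 and 0.256, and those of differently numbered libraries at -0.388 to 0.207. Floxed control pairs gave 0.065, 0.101 and 0.106, and differently numbered ones -0.155 to 0.0872. The main fits used no replicate block.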

Additional observations from a re-analysis of the deposited data

Results flagged for a closer look

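The knockout difference of Cd83 differed between MPP and LT-HSC by an interaction test (-1.74 on the log2 scale, limma adjusted p = 0.0251, lower in the MPP contrast). Cd83 was at 0.204 to 0.423 TPM in knockout MPP and 2.85 to 3.87 TPM in floxed control MPP, against 0.0652 to 0.303 TPM in knockout LT-HSC and 0.0990 to 0.242 TPM in floxed control LT-HSC, so it was low in 3 of the 4 groups. It passed the filter on low values only through floxed control MPP, the group that makes the difference, so the test does not support the result independently. Over alternatives in which 1 knockout or LT-HSC control library was left out the interaction ran from -1.81 to -1.64, with adjusted p from 0.0181 to 0.0947. With a pseudocount of 0.1 it was -2.97 (limma adjusted p = 0.107), and with the B cell covariate -1.65 (adjusted p = 0.519).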

How the results depend on the processing

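In MPP the 9 calls between knockouts and floxed controls became 5 with no filter on low values, 4 with the B cell covariate, 0 with both control libraries richest in B cell transcripts left out, and 3 to 6 with 1 library left out. In LT-HSC the 10 calls became 2 with the covariate, 4 with rescaling and the covariate, and 0 to 11 with 1 library left out. Between MPP and LT-HSC of floxed controls the 16 calls became 4, 6 and 9 under the covariate, rescaling with it, and both libraries left out, and 12 to 19 with 1 left out. In knockouts the 11 calls became 7 with quantile normalization and 7 to 11 with 1 left out. The 1 call of the cell type interaction became 0 with a pseudocount of 0.1, with the covariate, with rescaling and the covariate, and with both libraries left out, and was 0 to 10 with 1 left out. With 1 library left out, Myc allele libraries against Cre controls gave 0 to 1 calls, the batch interaction 0 to 7, PSI between cell types 0 to 4 and PSI between genotypes 1 to 3. PSI between cell types gave 2 calls where 2 values in each group sufficed. Leaving both libraries out, and rescaling together with the covariate, were chosen after seeing the data. In LT-HSC, Nfkb1 reversed to -0.046 with rescaling and -0.060 with rescaling and the covariate, and Bcl2l1 to -0.025 with quantile normalization. Of 658 alternatives for 47 results on single genes, 467 kept direction and call, 188 lost the call and 3 changed sign; the cause was not tested.

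With a replicate block, counts were 10 in MPP (9 without it), 9 in LT-HSC (10), 18 between cell types in floxed controls (16) and 10 in knockouts (11), or 20 and 13 with the block by source code. It removed both PSI calls between genotypes (0 in place of 2) and changed no other call count by over 1.5 times. Same-numbered libraries of different genotype in batch 1 correlated at -0.0713 to 0.295 and those of batch 2 at -0.158 to -0.0114, so these share only a number. A lone library left in a group is assumed to vary like the other groups. Read depth is unknown, so low TPM and PSI of exactly 0 or 1 carry an error that could not be given.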
